A study of Mus musculus with 3 samples.

Results

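The protein kinase C family was examined here as 8 genes, Prkca, Prkcb, Prkcd, Prkce, Prkch, Prkcq, Prkcz and Prkci, measured by 17 of the 41174 probes of a whole-genome mouse array. The genes were taken by name: every probe that is not a control and whose symbol, or whose accession in RefSeq, led to one of these 8 genes was kept, whatever its signal. Prkcb stands on this array under its older name, Prkcb1. All 8 genes had at least 1 probe well above background on at least 1 array, as did 14563 genes in all, and 13 of the 17 probes were well above background on all 3 arrays.

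The arrays hold RNA of peritoneal macrophages of male Swiss albino mice aged 8 weeks, with 1 array per group and groups of 10 mice. Control mice were given TPA (12-O-tetradecanoylphorbol-13-acetate), a phorbol ester, at 100 ng into the peritoneum. The second group received the same TPA with 35 nmol of hexavalent chromium, Cr(VI), and the third the same TPA with 70 nmol. The labels give these doses as Cr(VI), and the protocol gives the same numbers of nmol as potassium dichromate. All mice had received 125 µg lipopolysaccharide 4 days before, and peritoneal cells were collected by lavage 4 days after the dose. Since TPA was given to every group, no comparison below tests TPA itself. Whether the RNA of an array came from 1 mouse or from a pool is not settled by the labels. No array analysed here had lipoic acid, which the series title names.

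With 1 array per group, nothing here has a replicate check or a p-value, and precision is limited by how few arrays there are. A level is log2 of the processed signal minus the array's 75th percentile, so 0 is that percentile. A difference is the level of one array minus that of another, on the log2 scale, and covers these arrays only. The ± beside a difference is the scanner software's own error of the 2 spots, with a median of 0.20 over all genes. It leaves out the spread between mice. Each protein kinase C probe has 1 spot on an array. A probe's level is set only against its own level on another array, since probes differ in how well they bind. The share of all probes well above background was 49.1% for the control, 45.9% for 35 nmol and 45.1% for 70 nmol. The 3 arrays lay on the same slide, where place and group cannot be told apart.

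Protein kinase C enzymes phosphorylate serine and threonine residues downstream of phospholipase C. Their classes differ in what switches them on. Classical members (alpha and beta, from Prkca and Prkcb) need calcium and the membrane lipid diacylglycerol. Calcium-independent members (delta, epsilon, eta and theta, from Prkcd, Prkce, Prkch and Prkcq) respond to diacylglycerol alone. Atypical members (zeta and iota, from Prkcz and Prkci) respond to neither calcium nor diacylglycerol and act with the Par6 polarity proteins and p62. Phorbol esters such as TPA take the place of diacylglycerol, so they act on classical and calcium-independent members but not on atypical ones, and long exposure leads to breakdown of the phorbol-sensitive proteins, which a transcript level does not show.

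Promoter sequences are shown for Prkcb, the measured classical member, for Prkcq, the calcium-independent member furthest from the control, and for Prkcz, whose probes disagreed along the gene and which has 3 annotated starts. Each window runs from 250 bases before to 50 after a transcript start in RefSeq on GRCm38.p6 and is written 5′ to 3′ on the gene's strand. Prkcb lies at chr7:122288875-122289174 on the plus strand and Prkcq at chr2:11172132-11172431 on the plus strand. The Prkcz windows lie on the minus strand, at chr4:155361379-155361678, chr4:155345740-155346039 and chr4:155344700-155344999, so the second and the third start 15.6 and 16.7 kb downstream of the first. Capitals mark GGGCGG, the GC box bound by Sp1-type factors, and TGACGTCA, the cyclic AMP response element (CRE), on either strand, where GGGCGG reads CCGCCC on the opposite strand.
Prkcb: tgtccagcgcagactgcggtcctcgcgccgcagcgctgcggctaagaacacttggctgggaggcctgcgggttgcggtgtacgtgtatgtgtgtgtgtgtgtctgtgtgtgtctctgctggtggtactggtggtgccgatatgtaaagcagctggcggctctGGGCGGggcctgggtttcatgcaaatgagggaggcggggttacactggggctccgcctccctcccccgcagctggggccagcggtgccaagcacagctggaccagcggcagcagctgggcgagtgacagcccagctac
Prkcq: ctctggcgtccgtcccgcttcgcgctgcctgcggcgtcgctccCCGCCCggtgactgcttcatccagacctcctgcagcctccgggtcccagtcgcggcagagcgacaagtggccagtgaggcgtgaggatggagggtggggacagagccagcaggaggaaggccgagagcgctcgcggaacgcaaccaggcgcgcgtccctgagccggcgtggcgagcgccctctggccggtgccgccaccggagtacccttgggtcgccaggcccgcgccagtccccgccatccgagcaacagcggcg
Prkcz start 1: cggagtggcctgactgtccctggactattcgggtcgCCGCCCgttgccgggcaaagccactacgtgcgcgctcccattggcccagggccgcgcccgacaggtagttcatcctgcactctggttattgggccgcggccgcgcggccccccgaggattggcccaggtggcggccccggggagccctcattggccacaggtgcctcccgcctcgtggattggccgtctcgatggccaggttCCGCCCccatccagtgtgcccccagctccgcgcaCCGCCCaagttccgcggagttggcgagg
Prkcz start 2: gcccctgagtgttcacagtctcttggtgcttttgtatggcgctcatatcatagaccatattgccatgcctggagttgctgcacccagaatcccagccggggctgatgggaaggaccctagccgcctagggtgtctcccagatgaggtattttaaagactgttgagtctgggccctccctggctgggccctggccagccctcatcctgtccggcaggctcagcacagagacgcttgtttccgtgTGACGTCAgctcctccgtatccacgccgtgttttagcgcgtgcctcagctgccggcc
Prkcz start 3: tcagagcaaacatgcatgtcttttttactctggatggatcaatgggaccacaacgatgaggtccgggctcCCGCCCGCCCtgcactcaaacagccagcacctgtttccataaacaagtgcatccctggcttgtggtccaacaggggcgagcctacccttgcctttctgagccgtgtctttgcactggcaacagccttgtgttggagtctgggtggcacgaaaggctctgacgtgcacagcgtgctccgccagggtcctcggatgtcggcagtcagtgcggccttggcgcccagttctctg

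The 3 Prkcz windows differed in these letters. The first held 3 GC boxes, the second held the CRE and no GC box, and the third held a pair of GC boxes that overlap. Of the 8 genes, 6 had a window in the table used, with 9 windows in all. A GC box stood in 7 of the 9, against 35.7% of all 32851 windows of the same length, and the CRE in 1 of 9, against 1.79%. TATAAA was found in 1 of 9, the first Prkcd window, against 13.6%. TGACTCA, the phorbol ester response element that AP-1 binds, was found in 0 of 9, against 5.20% of all windows. G and C made up between 51.3% and 75.3% of the letters of the 9 windows, with a median of 52.7% over all windows, and GGGCGG is itself made of these letters. These matches describe the letters of the windows and no binding.

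None of the 7 members that could be measured on more than 1 array differed 2-fold in any comparison. At 70 nmol against the control 0 of the 7 measured members passed 2-fold, where 2.71% of all genes (12542 measured) did. At 35 nmol against the control the count was again 0 of 7, beside 1.42% of 12731 genes. Between 70 and 35 nmol it was 0 of 7, beside 1.64% of 12388 genes. Past 1.5-fold there were also 0 of 7 in each comparison, where all genes gave 9.38%, 4.89% and 6.51% in the same order. A gene's value here is that of its brightest probe, and a dimmer probe of Prkcb, Prkce and Prkcz did lie near or past 1.5-fold, as given below. The median difference of the 7 members was -0.06 at 70 nmol against the control, 0.04 at 35 nmol against the control and 0.01 at 70 against 35 nmol, where all genes had 0.04, 0.04 and 0.00. The median size of a member's difference was 0.27 at 70 nmol against the control (0.17 over all genes) and 0.12 at 35 nmol (0.14 over all genes).

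**Figure D1:**
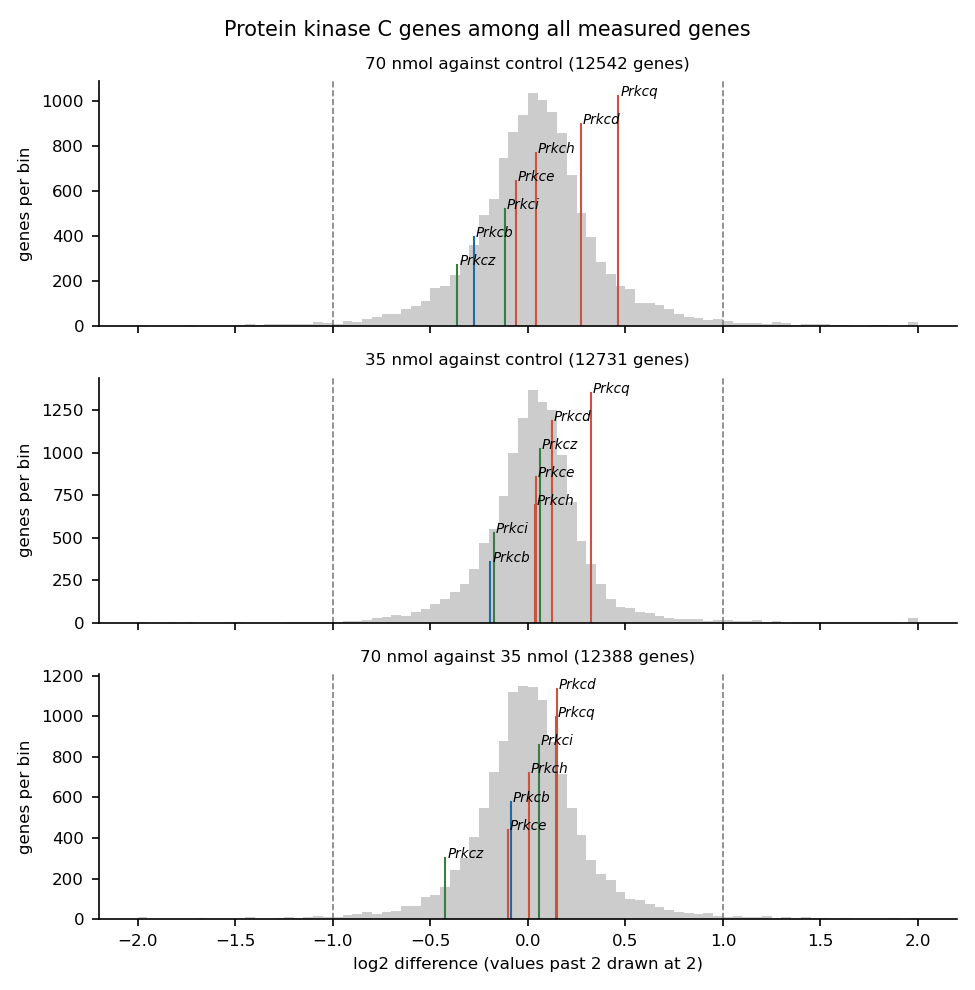
Histograms of the log2 difference of every measured gene for 70 nmol against control, 35 nmol against control and 70 against 35 nmol, with the 7 measured protein kinase C genes as vertical lines (blue classical, red calcium-independent, green atypical; line heights only keep the names apart) and dashed lines at 2-fold. All 7 genes lie inside the dashed lines in the 3 panels, with Prkcq furthest to the right against the control and Prkcz furthest to the left at 70 nmol.

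Among the classical members, Prkcb was bright and lower at both doses. Protein kinase C beta is the classical form best known from B cells, where it passes the antigen receptor signal on to NF-κB, and it is also present in myeloid cells. Its brightest probe, A_52_P51355 (mm8 chr7:122419540-122419599, plus strand), had processed signals of 5671 for the control, 3797 at 35 nmol and 3727 at 70 nmol. The levels were 4.40, 4.21 and 4.12 in the same order, the control highest. The difference was -0.19 ± 0.20 at 35 nmol and -0.28 ± 0.20 at 70 nmol, so only the second exceeded the scanner error. Scaling on spike-in RNA gave -0.61 and -0.64, past the error at both doses. It lowers the median of all genes, to -0.38 at 35 nmol and -0.32 at 70 nmol.

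The other Prkcb probe, A_52_P328867, which the array design places upstream on the gene (mm8 chr7:122373639-122375574), differed by more. It had signals of 283 for the control, 150 at 35 nmol and 152 at 70 nmol. Its differences were -0.53 ± 0.21 at 35 nmol and -0.56 ± 0.21 at 70 nmol, past the scanner error at both doses. At 70 nmol that is 0.677 of the control level on the linear scale. Spike-in scaling gave -0.95 and -0.92. The gap of 0.29 between the Prkcb probes at 70 nmol was not rare: 27.4% of the 3088 genes with 2 measured probes had one as wide. Between 70 and 35 nmol neither probe differed by more than the scanner error, at -0.09 ± 0.20 and -0.03 ± 0.21.

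At each dose 7 of the 8 B cell markers lay below the control, by 2-fold or more in 0 of 8 at 35 nmol (0.298% of all genes) and in 1 of 8 at 70 nmol (1.08% of all genes), and their part in the Prkcb difference was not tested. All 8 genes of the B cell list were measured, so the cells collected by lavage held B cell transcripts as well as macrophage ones. Their summed level, with each array's 75th percentile as 1, was 262 for the control, 253 at 35 nmol and 205 at 70 nmol. The list's median difference was -0.24 at 35 nmol and -0.34 at 70 nmol, with the antigen receptor chain Cd79b at -0.00 and -0.34. In such a mixed sample, fewer cells of a type and less RNA per cell cannot be told apart. The macrophage list, with 7 of 8 genes measured, had summed levels of 453, 457 and 400 in dose order, without the saturated Lyz2. Its median was -0.02 at 35 nmol and 0.04 at 70 nmol, the values of the receptor Csf1r. Its genes went both ways: at 70 nmol 4 were above the control and 3 below, from -0.51 for Adgre1 to 0.76 for Fcgr1. At 35 nmol 2 were above and 5 below, from -0.09 to 0.34.

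Prkca, the widely expressed classical form, was at the limit of detection. Its single probe, A_51_P118012 (mm8 chr11:107754811-107754870, minus strand), had signals of 23.0 for the control, 8.35 at 35 nmol and 9.94 at 70 nmol, and only the first was well above background. The control level of -3.55 lay below the lowest level called well above background at 35 nmol (-3.40) and at 70 nmol (-3.26). No fold is therefore given for Prkca, and a difference was not detectable at this signal.

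**Figure D2:**
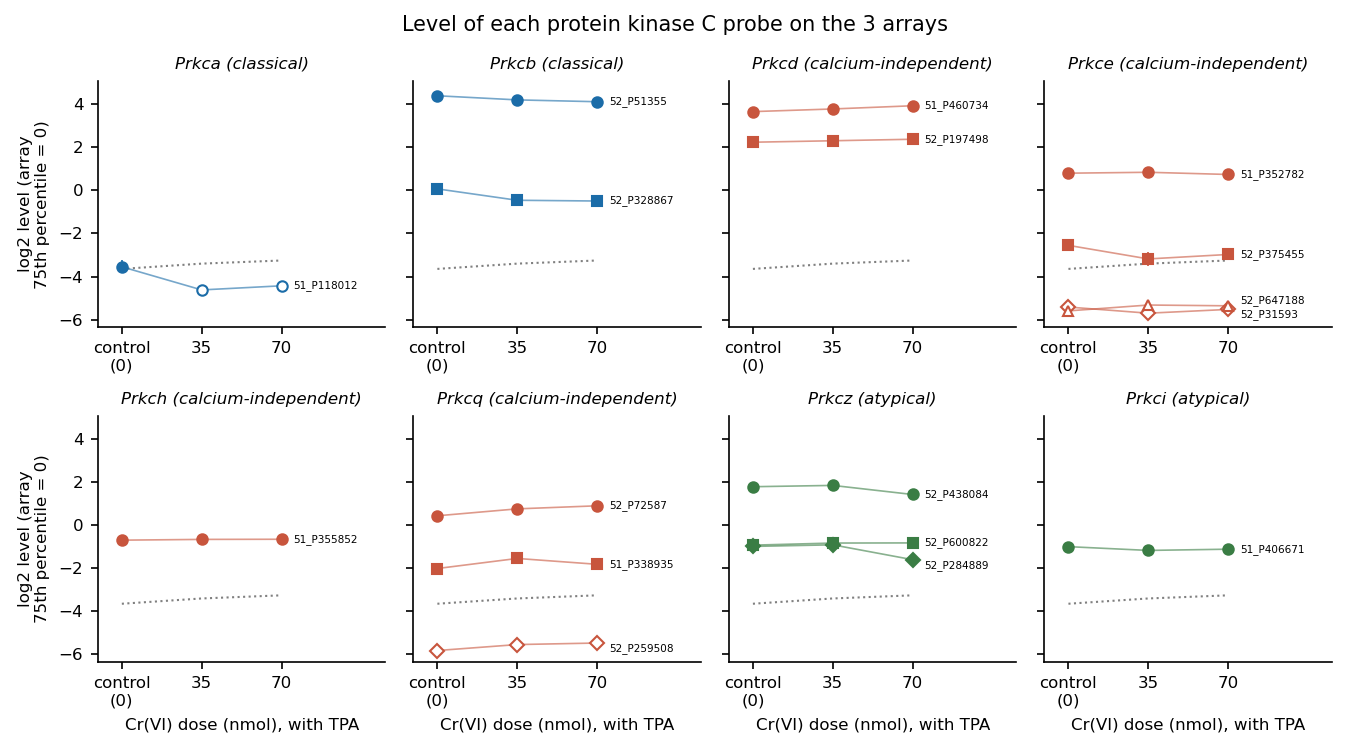
Level (log2, array's 75th percentile at 0) of each of the 17 probes on the control, 35 nmol and 70 nmol arrays, 1 panel per gene, with symbols for different probes. Filled symbols are well above background, with the scanner error as a bar where it is larger than the symbol, open symbols are not, and the dotted line joins the lowest level well above background on each array (-3.65, -3.40 and -3.26). Prkca is filled on the control array only, and no measured probe of the other genes differs by 1 log2 unit between arrays.

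Among the calcium-independent members, Prkcd was bright and slightly higher with dose. Protein kinase C delta acts in myeloid cells in the oxidative burst and in apoptosis. Its probe A_51_P460734 (mm8 chr14:29424858-29424917, minus strand) had levels of 3.66 for the control, 3.78 at 35 nmol and 3.93 at 70 nmol, from signals of 3403, 2834 and 3274. The raw signals and the levels order the arrays differently, because the 75th percentile itself was 8.07 for the control, 7.69 at 35 nmol and 7.74 at 70 nmol. The difference was 0.12 ± 0.20 at 35 nmol and 0.27 ± 0.20 at 70 nmol. The second probe, A_52_P197498, gave 0.07 ± 0.20 and 0.14 ± 0.20, within the scanner error. With scaling on spike-in RNA the first probe turned to -0.30 at 35 nmol and -0.09 at 70 nmol, so the direction of Prkcd depends on the scaling.

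By its brightest probe and the 75th percentile scaling, Prkcq had the largest difference from the control of the 7 measured genes at both doses. With the mean of a gene's probes Prkcb was further from the control at 70 nmol, at -0.42 against 0.33 for Prkcq. With spike-in scaling of the brightest probes, every other measured gene was further from the control than Prkcq at 35 nmol. At 70 nmol all of them but Prkcd were. Protein kinase C theta is best known from T cells, where it acts at the contact with the antigen-presenting cell. Probe A_52_P72587 (mm8 chr2:11218252-11218311, plus strand) had signals of 365 for the control, 349 at 35 nmol and 401 at 70 nmol, and levels of 0.44, 0.76 and 0.90. It was 1.25-fold higher at 35 nmol (0.32 ± 0.21) and 1.38-fold higher at 70 nmol (0.46 ± 0.21), and 90.9% and 91.5% of all measured genes had a lower difference in these comparisons. The second probe, A_51_P338935, lies close by on the gene and had levels of -2.01, -1.54 and -1.81. It gave 0.47 ± 0.25 at 35 nmol and 0.20 ± 0.26 at 70 nmol, so the probes differ in which dose is higher. With spike-in scaling the first probe stood at -0.10 at 35 nmol and 0.10 at 70 nmol, and the second at 0.05 and -0.16, so the sign of Prkcq also depends on the scaling. The third probe, A_52_P259508, was not well above background on any array.

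T cell markers were measured beside Prkcq, and 11 of the 12 on the list were well above background on all arrays; Cd4 was not on any. Their summed level was 39.4 for the control, 39.6 at 35 nmol and 40.0 at 70 nmol. The list's median difference was 0.03 at 35 nmol and 0.09 at 70 nmol. None of its genes differed 2-fold from the control, where 1.42% of all genes did at 35 nmol and 2.71% at 70 nmol. Cd3d, a chain of the T cell receptor complex, differed by 0.07 and 0.36, and the kinase Lck by 0.03 and -0.02. The NK cell list had medians of -0.26 at 35 nmol, over 6 genes, and -0.17 at 70 nmol, over 5.

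Over the 12327 genes measured at both doses against the control, 173 with a symbol lay within 0.1 of Prkcq in these 2 differences. The 3 nearest were Bri3, with 0.32 at 35 nmol and 0.47 at 70 nmol, Ifnz, with the same rounded values, and Ptpn13, a tyrosine phosphatase, with 0.32 and 0.46. Their distances from Prkcq were 0.0039, 0.0052 and 0.0080 (Euclidean, log2). With 3 arrays a pattern has only 2 differences, and both share the control array, so many genes come close.

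Prkch differed by less than the scanner error between the arrays under the 75th percentile scaling. Protein kinase C eta is known from epithelium and from lymphoid and myeloid cells. Its single probe, A_51_P355852 (mm8 chr12:74695892-74695951, plus strand), had levels of -0.69 for the control, -0.66 at 35 nmol and -0.65 at 70 nmol. The differences were 0.04 ± 0.21 at either dose and 0.01 ± 0.21 between 70 and 35 nmol. A true difference up to about that error, or within the unmeasured spread between mice, would not be detectable. Spike-in scaling gave -0.38 at 35 nmol and -0.32 at 70 nmol, past the scanner error. The median of all genes was also -0.38 and -0.32 under that scaling.

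For Prkce, whose product acts in macrophage responses to lipopolysaccharide, 2 of 4 probes could be measured. The brighter, A_51_P352782 (mm8 chr17:86566155-86566214, plus strand), carries the gene's symbol in the array design through a cDNA clone and no RefSeq transcript. It had levels of 0.80 for the control, 0.84 at 35 nmol and 0.74 at 70 nmol, with differences of 0.04 ± 0.21 and -0.06 ± 0.21. The RefSeq probe A_52_P375455 (mm8 chr17:86404325-86404384) was dim, with signals of 45.9 for the control, 22.7 at 35 nmol and 27.2 at 70 nmol. It differed by -0.63 ± 0.37 at 35 nmol and -0.42 ± 0.35 at 70 nmol, just past its larger scanner error. A gap of 0.67 between probes, as at 35 nmol, was found in 3.24% of the 3144 genes with 2 measured probes. With normexp background correction the RefSeq probe gave -0.07 and -0.05, and with spike-in scaling -1.05 and -0.78, so the size of its difference depends on the processing. The brighter probe gave -0.38 and -0.42 with spike-in scaling. Probes A_52_P647188 and A_52_P31593 were not well above background on any array.

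**Figure D3:**
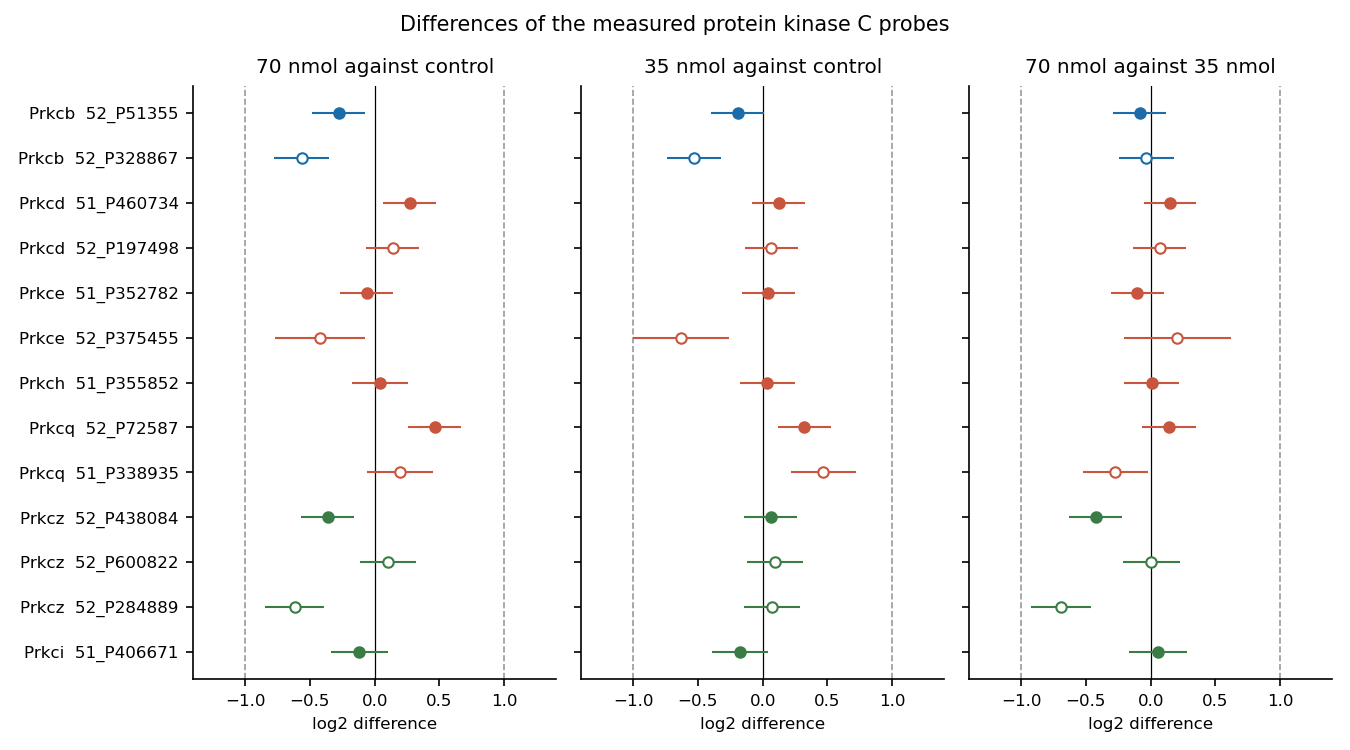
Log2 difference of each of the 13 measured protein kinase C probes for 70 nmol against control, 35 nmol against control and 70 against 35 nmol, with the scanner error as bars. Filled points carry the gene's value, open points are dimmer probes, colours mark classical (blue), calcium-independent (red) and atypical (green) members, and dashed lines mark 2-fold. Both Prkcb probes lie left of 0 against the control, and 2 of the 3 Prkcz probes lie left of 0 in the panels with 70 nmol, but not at 35 nmol against control.

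Among the atypical members, Prkcz was lower at 70 nmol on its 2 probes at the 3′ end and not on the probe further upstream. Protein kinase C zeta acts in cell polarity and NF-κB signalling and is not a receptor for TPA. In brain a shorter form without the regulatory part, PKM zeta, arises from a start inside the gene. Probe A_52_P438084 (mm8 chr4:154105884-154105943, minus strand) had signals of 930 for the control, 742 at 35 nmol and 577 at 70 nmol, and levels of 1.79, 1.85 and 1.43. It was the lowest at 70 nmol, with a difference of -0.36 ± 0.20 from the control and -0.42 ± 0.20 from 35 nmol, where 5.76% of all measured genes had a lower difference. At 35 nmol against the control it differed by 0.06 ± 0.20, or by -0.36 with spike-in scaling.

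The 3′-most probe, A_52_P284889 (mm8 chr4:154104026-154104085, minus strand), showed the same order with a wider gap. Its signals were 136 for the control, 110 at 35 nmol and 70.7 at 70 nmol. The difference at 70 nmol was -0.62 ± 0.23 from the control and -0.69 ± 0.23 from 35 nmol, the only measured member probe past 1.5-fold in both, while at 35 nmol against the control it was 0.07 ± 0.22. The upstream probe, A_52_P600822 (mm8 chr4:154200280-154201303), lies 96.3 kb from the 3′-most one. It had signals of 142, 116 and 121 and differed by 0.10 ± 0.22 at 70 nmol and 0.10 ± 0.21 at 35 nmol from the control, and by 0.01 ± 0.22 between 70 and 35 nmol.

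The 2 probes at the 3′ end list 2 RefSeq mRNAs of Prkcz each, and the upstream probe lists 1 of them. The range over the 3 probes was 0.72 at 70 nmol against the control, as wide as in 9.85% of the 792 genes with 3 measured probes, and 0.70 at 70 against 35 nmol, as wide as in 6.67% of 765 such genes. At 35 nmol against the control it was 0.04. The 3 starts whose sequences are given above belong to the gene, but the arrays do not tell which start a probe's signal came from. The 3′ probes were lower at 70 nmol under all 6 other scalings or background corrections. Spike-in scaling took A_52_P438084 to -0.72 against the control and -0.36 against 35 nmol, and the smallest size for A_52_P284889 came from normexp, with -0.30 and -0.38. The upstream probe turned to -0.26 against the control with spike-in scaling.

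**Figure D4:**
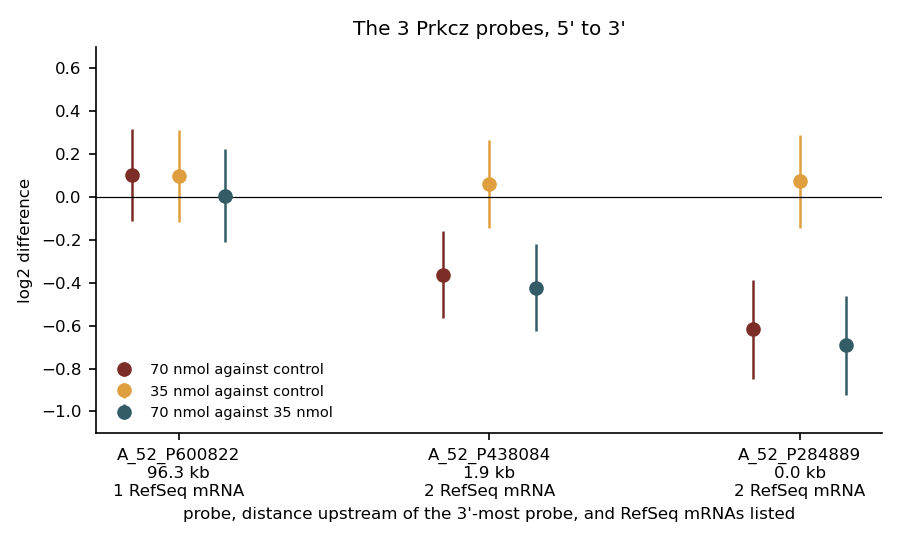
Log2 difference of the 3 Prkcz probes, ordered from 5′ to 3′ along the gene, for 70 nmol against control, 35 nmol against control and 70 against 35 nmol, with the scanner error as bars; the axis gives each probe's distance upstream of the 3′-most probe (96.3, 1.9 and 0 kb, not to scale) and how many RefSeq mRNAs the array design lists for it. The 2 probes at the 3′ end lie below 0 in both comparisons with 70 nmol and near 0 at 35 nmol, and the upstream probe lies near 0 throughout.

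Markers of several cell types were lower at 70 nmol together with the 3′ Prkcz probes, and their part in the Prkcz difference was not tested. Of the large peritoneal macrophage list 8 of 9 genes were measured, and 5 of them lay past 2-fold downward at 70 nmol against the control, where 1.08% of all genes did. The summed level of the 8, without the saturated Icam2, was 378 for the control, 345 at 35 nmol and 209 at 70 nmol, the lowest at 70 nmol like the 3′ Prkcz probes. Gata6, the transcription factor of these cells, differed by -1.08 at 70 nmol and -0.28 at 35 nmol on its brightest probe. Its other probes gave -1.02 and 0.56 at 70 nmol and -0.35 and 0.43 at 35 nmol. The mast cell list had 7 of 8 genes measured, and its summed level was 35.0, 23.0 and 13.7 in dose order. Its Cma1, a chymase, differed by -1.74 at 70 nmol and -0.95 at 35 nmol. The fibroblast list went the other way, with a sum of 9.59 for the control, 10.9 at 35 nmol and 32.7 at 70 nmol and 4 of 4 measured genes past 2-fold upward at 70 nmol against the control, where 1.63% of all genes were. Monocyte and small peritoneal macrophage markers had a median of 0.03 at 35 nmol and 0.39 at 70 nmol, mesothelial markers 0.25 and 0.68, and neutrophil markers -0.57 and 0.74, over 6, 3 and 4 measured genes. The neutrophil markers disagreed, with Cxcr2 at -2.07 and Retnlg at 1.98 at 35 nmol, and at -1.39 and 1.03 at 70 nmol. Erythroid markers had -2.47 and -1.07 over 4 genes, and all 6 liver markers were at least 2-fold higher at 35 nmol (1.12% of all genes were) while Alb, the one still measured at 70 nmol, was at -6.09. Of the platelet list only Itgb3 was measured, at 0.69 and -0.01.

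Prkci, the other atypical member, was slightly lower at both doses. Protein kinase C iota works in the Par polarity complex. Its single probe, A_51_P406671 (mm8 chr3:31242914-31242973, plus strand), had signals of 135 for the control, 91.5 at 35 nmol and 99.2 at 70 nmol, and levels of -0.99, -1.17 and -1.11. The differences of -0.18 ± 0.22 at 35 nmol and -0.12 ± 0.22 at 70 nmol were within the scanner error. Spike-in scaling gave -0.60 and -0.48, past the error at both doses, where the median of all genes was -0.38 and -0.32.

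By class, the single measured classical gene was lower at both doses and the 2 atypical genes were lower at 70 nmol, with values of -0.36 for Prkcz and -0.12 for Prkci. The 4 calcium-independent genes had differences between 0.04 and 0.32 at 35 nmol and between -0.06 and 0.46 at 70 nmol, by brightest probe. With the mean of a gene's probes Prkce was at -0.29 at 35 nmol and -0.24 at 70 nmol, while Prkcd, Prkch and Prkcq stayed above 0. Classes of 1, 2 and 4 genes on single arrays allow no test of a difference between classes, and under spike-in scaling the gene values of Prkcd, Prkch and Prkce were below 0 at both doses.

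The genes around protein kinase C were read from 8 lists with 106 genes, of which Card9 was not found on the array under that name. At 70 nmol against the control, 5 of the 84 that could be measured lay past 2-fold upward, where 1.63% of all genes did, and 2 downward, where 1.08% of all genes did. At 35 nmol against the control, 1 of 83 was higher (1.12% of all genes) and 1 lower (0.298% of all genes). Between 70 and 35 nmol, 2 of 83 were higher (0.92% of all genes) and 2 lower (0.718% of all genes). The median difference over these genes was 0.08, 0.03 and 0.05 in the 3 comparisons, beside 0.04, 0.04 and 0.00 for all genes. The direction of the counts against the control depended on the processing. With spike-in scaling 2 list genes were higher and 4 lower at 70 nmol, where 87 and 400 of all genes were. At 35 nmol it gave 0 higher and 2 lower, where 71 and 251 of all genes were. With normexp background correction 1 list gene was higher and 2 lower at 70 nmol, and 0 passed at 35 nmol.

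Other receptors for phorbol esters and diacylglycerol included Dgkg, which had the lowest difference of the measured list genes at 70 nmol against the control. This diacylglycerol kinase with a phorbol-binding domain had levels of -0.65 for the control, -1.11 at 35 nmol and -2.51 at 70 nmol. Against the control that is -0.46 at 35 nmol and -1.86 at 70 nmol. Unc13a, which primes secretory vesicles, was 1.08 higher at 70 nmol and 0.50 higher at 35 nmol, from a dim control level of -2.02. Chn2, a Rac GTPase-activating protein, differed by 0.99 at 35 nmol and 0.19 at 70 nmol. Rasgrp3, an exchange factor for Ras in B cells, differed by 0.09 at 35 nmol and -0.65 at 70 nmol. Of the 12 genes of this list measured at 70 nmol, 1 passed 2-fold upward and 1 downward, beside 1.63% and 1.08% of all genes, and the median was -0.10. The protein kinases D, which classical and calcium-independent members activate, were near 0 in the measured Prkd2 (-0.03 at 35 nmol and -0.16 at 70 nmol) and Prkd3 (0.03 and -0.12), and Prkd1 was not above background.

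Upstream enzymes make and remove diacylglycerol. In the phospholipase C list 8 of 12 genes were measured. Plcd3 had levels of -2.92 for the control, -1.92 at 35 nmol and -1.27 at 70 nmol, and was 1.00 higher at 35 nmol and 1.65 higher at 70 nmol than the control, whose level was near the detection limit. Plcb2, the form of blood cells, differed by -0.21 and -0.35, and Plcg2, which acts below B cell and Fc receptors, by 0.02 and 0.18. Among 6 measured diacylglycerol kinases outside the phorbol-binding ones, none passed 2-fold against the control, where 1.42% of all genes did at 35 nmol and 2.71% at 70 nmol. The most distant from the control were Dgke at -0.35 and -0.39 and Dgkh at 0.05 and 0.37.

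Among the partners, Cavin3, which binds protein kinase C delta at caveolae, was 1.30 higher at 70 nmol than in the control and 1.44 higher than at 35 nmol, while the difference at 35 nmol was -0.14. Its levels were -2.41 for the control, -2.55 at 35 nmol and -1.11 at 70 nmol, and fibroblast markers, given above, were also highest at 70 nmol; their part in the Cavin3 difference was not tested. Pdpk1, the kinase that primes protein kinase C, differed by 0.98 at 35 nmol and 0.72 at 70 nmol on its brightest probe, but its other probes gave 0.14 and 0.10 at 35 nmol and -0.10 and -0.00 at 70 nmol. The scaffold Akap12 differed by -0.72 and -0.57. Pard6b, a partner of the atypical members, was well above background on the control array only, at -1.87, and was at least 2.89-fold lower at 35 nmol and at least 2.61-fold lower at 70 nmol. These bounds set the control signal against the lowest signal called well above background on the other array. A probe of the anchor protein Rack1 was saturated, so no difference is given for it.

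Substrates and the path to NF-κB gave no gene past 2-fold. Over all genes, 2.71% passed at 70 nmol against the control, 1.42% at 35 nmol and 1.64% between 70 and 35 nmol. Of 17 measured substrates, Marcksl1, an actin-binding relative of Marcks, differed by 0.14 at 35 nmol and 0.95 at 70 nmol, with 0.25 and 0.97 on its other probe. Marcks itself differed by 0.08 and 0.34, and Plek, the platelet and leukocyte substrate pleckstrin, by -0.14 and -0.49. Sdc4, a syndecan that binds protein kinase C alpha, differed by 0.39 and 0.66, with -0.09 and 0.71 on its other probe. Ncf1, the oxidase subunit p47phox, differed by 0.20 and 0.41, with -0.02 and 0.41 on its other probe. In the list from CARD proteins to NF-κB, 12 of 13 genes on the array were measured, with a median of -0.03 at 35 nmol and 0.01 at 70 nmol. Ikbkg, the regulatory subunit of the IκB kinase, differed by -0.45 and -0.58 with -0.27 and -0.11 on its other probe, Map3k7 by -0.50 and -0.39, and the inhibitor Nfkbia by 0.22 and 0.32. Of the protein kinases N, relatives of the family, Pkn2 differed by 0.41 and 0.54, with 0.23 and 0.40 at 35 nmol and 0.82 and 0.03 at 70 nmol on its other probes. Pkn3 was at least 1.48-fold lower at 35 nmol and at least 1.34-fold lower at 70 nmol.

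Genes that TPA is known to induce had the largest median size of difference from the control among the 8 lists, 0.22 at 35 nmol and 0.43 at 70 nmol, where all genes had 0.14 and 0.17. Past 2-fold at 70 nmol against the control were 2 of 17 measured genes upward and 1 downward, beside 1.63% and 1.08% of all genes. Ccl2, a chemokine for monocytes, had levels of -1.14 for the control, -0.28 at 35 nmol and 0.62 at 70 nmol, with differences of 0.85 and 1.76. Fos, a part of AP-1, differed by 0.15 at 35 nmol and 1.05 at 70 nmol, and its partner Jun by 0.23 and 0.96. Thbs1, thrombospondin, differed by -1.29 at 70 nmol and -0.22 at 35 nmol, with -1.11 and -1.23 on its other probes at 70 nmol. Timp1, an inhibitor of matrix proteases, differed by -1.04 at 35 nmol and 0.15 at 70 nmol. The list's median was 0.13 at 35 nmol and 0.18 at 70 nmol, and Ptgs2, Fosl1 and Plau were not well above background on any array. All groups had TPA, so these values compare TPA with chromium and TPA alone.

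**Figure D5:**
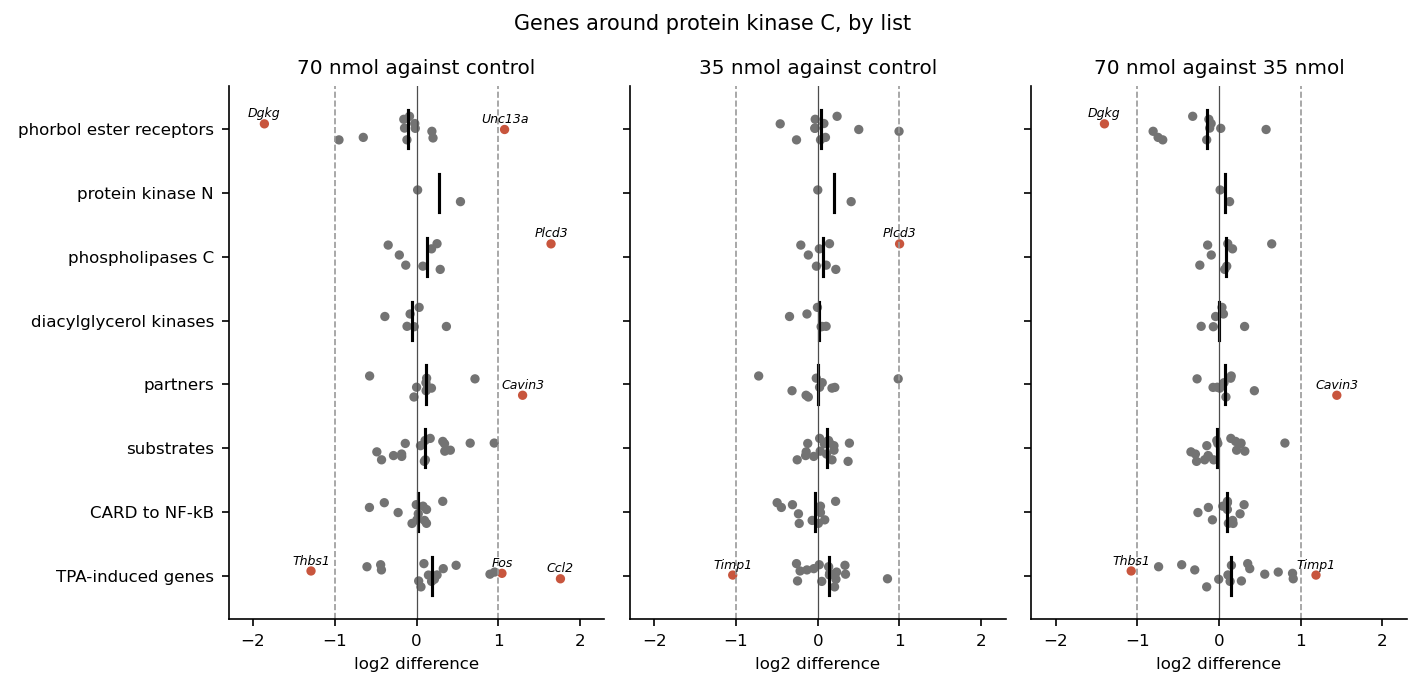
Log2 differences of the measured genes of the 8 lists around protein kinase C for 70 nmol against control, 35 nmol against control and 70 against 35 nmol, with 1 point per gene, the list median as a black bar and dashed lines at 2-fold. Genes past 2-fold are red and named: 7 genes at 70 nmol against control, 2 at 35 nmol against control and 4 between 70 and 35 nmol.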

How the data were processed

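The members and gene lists were chosen with earlier results of these data known. The authors read spot intensity with Agilent Feature Extraction 10.5.1.1, per the file headers, with probe positions on build mm8. The deposited value table holds log2 values. Its columns equalled log2 processed signal minus 8.00, 7.61 and 7.67 (control, 35 and 70 nmol), within 0.01 for 99.8%, 99.8% and 99.9% of probes well above background, with column medians of -3.60, -3.74 and -3.78. So its scale and direction are known and it is not centred by gene.

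Here, the log2 processed signal minus the 75th percentile of 43379 non-control spots was used. Control and outlier spots were left out and a probe's spots averaged. The median SD of repeated spots was 0.043, 0.043 and 0.034. Of 41174 probes, 24375 were named by accession through RefSeq (GRCm38.p6), 6303 by symbol, 2418 by synonym, and 8078 kept the file's name. The well-above-background flag uses the scanner's multiple of 13. A gene took its brightest probe's value, measured when well above background and unsaturated on both arrays. The text names all members, list genes past 2-fold, up to 3 per list with the largest differences, the 3 genes nearest the lead member and defining markers; other named list genes were chosen after their values were seen, and some genes are not reported here. Alternatives were normexp (offset 50), quantile, cyclic loess, 2 other scalings, filters, probe means, the deposited table and other thresholds. R 4.3.3 with limma 3.58.1 and Python 3.11.15 were used, and steps were tested on simulated data.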

Additional observations from a re-analysis of the deposited data

How the results depend on the processing

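With 1 array per group nothing here was tested, so counts past a fold are compared. Of 39 differences of measured member probes, 23 kept their sign under all 6 other scalings, normalisations or background corrections and 16 took the other sign under at least 1. Spike-in scaling (4 of 10 spike-in probes) moved 26 of the 39 by more than the scanner error, normexp moved 4, and 0 moved with quantile, cyclic loess, median scaling or the deposited table. The median over all genes shifted under spike-in scaling by -0.36 for 70 nmol, by -0.42 for 35 nmol (both against the control) and by 0.06 for 70 against 35 nmol. It gave 87 genes higher and 400 lower at 70 nmol (17.9% higher, against 60.0%), and 71 higher and 251 lower at 35 nmol (22.0% higher, against 79.0%), where 322 passed in all. Under it smaller positive differences from the control turn negative.

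Counts past 2-fold follow as 70 nmol against control, 35 nmol against control and 70 against 35 nmol, with main counts of 0, 0 and 0 for members, 7, 2 and 4 for pathway genes and 340, 181 and 203 for all genes. Normexp gave 3, 0 and 0 pathway genes and 128, 65 and 59 genes in all. The stricter filter gave 3, 1 and 2 pathway genes and 159, 48 and 75 in all. Without the background filter there were 2754, 2494 and 2228 in all, 5 pathway genes at 35 nmol, 7 between 70 and 35 nmol, and 1 member at 35 nmol, Prkca, at -1.07. Median scaling gave 4 pathway genes at 35 nmol. A threshold of 1.5-fold gave 15, 6 and 13 pathway genes and 1176, 622 and 807 in all, and 3-fold gave 3, 0 and 0 and 71, 63 and 40. Fewer genes pass a stricter filter or threshold by construction; for the other settings the cause was not tested. Signal over background limits Prkca, the RefSeq probe of Prkce and Plcd3 most. No paired analysis was possible because each group has 1 array.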
